A study of Rattus norvegicus with 12 samples.

Results

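Keratins are the proteins that build the intermediate filaments of epithelial cells, and 49 keratin genes were measured here in rat calvarial bone, a tissue whose own cells build their filaments mainly from vimentin. They were all the genes on the array whose name in the files starts with Krt and a digit, 49 of 34912 gene names, carried by 57 probes. Where a gene had several probes, the one with the highest mean signal over the arrays was used. The RNA came from rats 10 weeks old, 6 h after surgery, and was hybridised to 12 one-colour arrays, 4 per group. The laser group had a rectangle of 8 by 3 mm removed from the bone by Er:YAG irradiation, which heats water in the tissue, at an output of 127 mJ per pulse, 20 Hz and 3 strokes. The bur group had the same area cut by drilling. Controls lost their periosteum but no bone, so removal of the periosteum is not itself compared. Whether the 4 samples per group are 4 animals is not in the labels, and p-values thus cover only the spread among these samples, which may be technical. In bulk RNA, fewer cells of a type and less RNA per cell cannot be told apart.

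A keratin filament is made of a type I and a type II chain in equal parts, and epithelia differ in the pairs they use. The basal layer of the epidermis uses Krt5 with Krt14, the layers above it Krt1 with Krt10, and single-layered epithelia Krt8 with Krt18. Hair is built from its own hard keratins, and the inner root sheath around it from a further set. The filaments end on desmosomes, the plaques that join epithelial cells. In the RefSeq table of the GRCr8 assembly, 22 of the 49 members lie on chromosome 7 and 27 on chromosome 10. Chromosome 7 holds the cluster of type II genes and also the type I gene Krt18, and chromosome 10 the cluster of type I genes. The members were sorted by known site into basal epidermal (3), suprabasal epidermal (8), mucosal and corneal (5), wound (2), simple epithelial (6), root sheath (8), hair (15) and other keratins (2). The first 4 of these classes are together called epidermal (18).

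The probes are oligonucleotides of 60 bases, shown for members on which the results turn, 5′ to 3′, as the files give them. Where a position follows, it is the array design's, on build RGSCv3.4. Capitals mark a run shared with the probe of another keratin. The first 5 have no such run of 15 bases or more, and the last 2 share one of 16 bases, the longest between 2 members.
Krt80 probe (chr7:140096117-140096176, minus strand): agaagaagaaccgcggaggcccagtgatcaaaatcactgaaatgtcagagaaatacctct
Krt10 probe (chr10:88288620-88288679, minus strand): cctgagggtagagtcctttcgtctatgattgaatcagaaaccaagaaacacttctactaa
Krt33b probe (chr10:88954496-88954555, minus strand): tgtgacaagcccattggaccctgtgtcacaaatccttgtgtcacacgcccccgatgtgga
Krt5 probe: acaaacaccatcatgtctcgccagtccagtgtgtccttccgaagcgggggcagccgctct
Krt5 other probe: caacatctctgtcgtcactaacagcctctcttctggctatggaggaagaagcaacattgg
Krt25 probe (chr10:88217582-88217641, minus strand): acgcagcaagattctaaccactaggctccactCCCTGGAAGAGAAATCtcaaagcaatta
Krt27 probe (chr10:88248561-88248620, minus strand): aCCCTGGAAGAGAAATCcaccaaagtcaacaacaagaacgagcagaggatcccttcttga
Krt25 and Krt27 are both keratins of the inner root sheath.

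Signals are given as log2 of the processed signal minus the 75th percentile of the array, so 0 is a signal at that percentile. Different probes of an array cannot be set against each other as amounts of RNA, so levels are compared between groups for 1 probe. The summed signals of gene lists, and the shares of single probes in them, describe probe signal and not amounts of RNA. Per array 67.8% to 73.7% of spots passed the scanner software's test of being well above background, 0 spots were saturated, and the 75th percentile signal was 197.2 to 383.2. Slides 1 and 2 each carried 2 laser and 2 bur arrays and slide 3 all 4 controls, so slide and the difference from control cannot be told apart. Spike-in controls averaged 8.13 to 8.83 on treated and 4.92 to 5.34 on control arrays on the log2 scale.

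Few keratins gave a signal on every array. The probe was well above background on all 12 arrays for 11 members, on 1 to 3 arrays for 8 and on no array for 16. Over the whole array it was so on all 12 arrays for 17957 of 34912 genes. The array count per gene is drawn in the map of detection. Per array, 19 to 26 keratins were well above background with the laser, 23 to 26 with the bur and 16 to 20 in control. Of all spots 67.8% to 73.6% were so on laser, 69.8% to 73.7% on bur and 68.0% to 69.3% on control arrays. All 3 basal keratins were well above background on all 4 laser and all 4 bur arrays, while in control Krt5 and Krt15 were so on 0 arrays and Krt14 on 3. Krt16 and Krt17, which keratinocytes switch on at wound edges, were well above background on 0 of 12 arrays. Krt6a, also listed for the wound class, had no probe under that name and was not read. Of the 15 hair keratins 5 were well above background on all 12 arrays, 5 on none and 5 on 1 or 2. Of the 6 simple keratins, Krt20, known from the gut lining, and Krt23 were so on none.

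**Figure D1:**
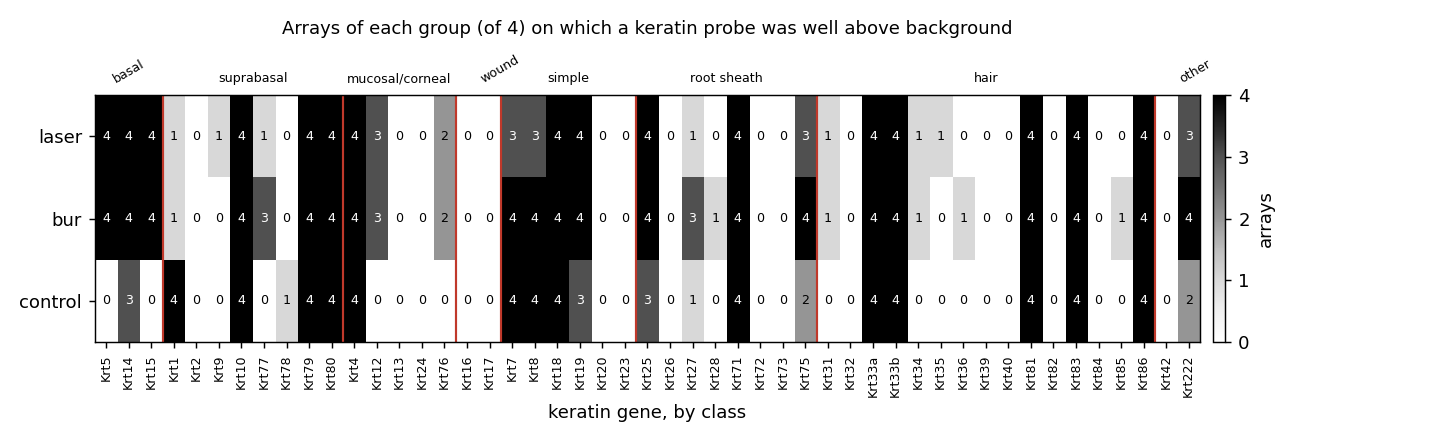
Number of arrays of each group (of 4; rows laser, bur, control) on which the probe of each of the 49 keratins (columns, by class) was well above background. Krt5 and Krt15 read 4, 4 and 0 from top to bottom, and Krt16 and Krt17 read 0 throughout.

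The tests took genes well above background on 4 arrays or more, which left 25 keratins of 22924 genes. Krt5, Krt15, Krt12, Krt76 and Krt77 passed this filter through treated arrays alone, with 0 control arrays well above background. A member of that kind enters the test because it is high in the treated groups, so the counts below describe the 25 and do not speak for all 49. The test was limma's moderated test over 12 arrays with Benjamini-Hochberg adjustment over all genes at 0.05, two-sided.

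After laser ablation 12 of the 25 keratins were higher than in control (48%) and 3 were lower (12%). Over all genes 49.8% passed in this comparison, 32.2% higher and 17.6% lower. After bur drilling 14 keratins were higher (56%) and 2 were lower (8%). Over all genes 51.0% passed there, 32.7% higher and 18.3% lower. The median log2 fold change of the 25 was 0.89 with the laser and 0.94 with the bur, against 0.21 and 0.23 over all genes. Both comparisons use the same control arrays. The keratins are mostly dim: 11 of the 25 lie in the dimmest of 5 equal bins of the genes tested, where the median of all genes was 0.56 with the laser and 0.69 with the bur, and 11 in the next bin, where it was 0.16 and 0.23. No array of one group overlapped the other for 13 of 25 keratins with the laser (52%, 48.7% over all genes) and for 13 with the bur (52%, 46.0%).

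**Figure D2:**
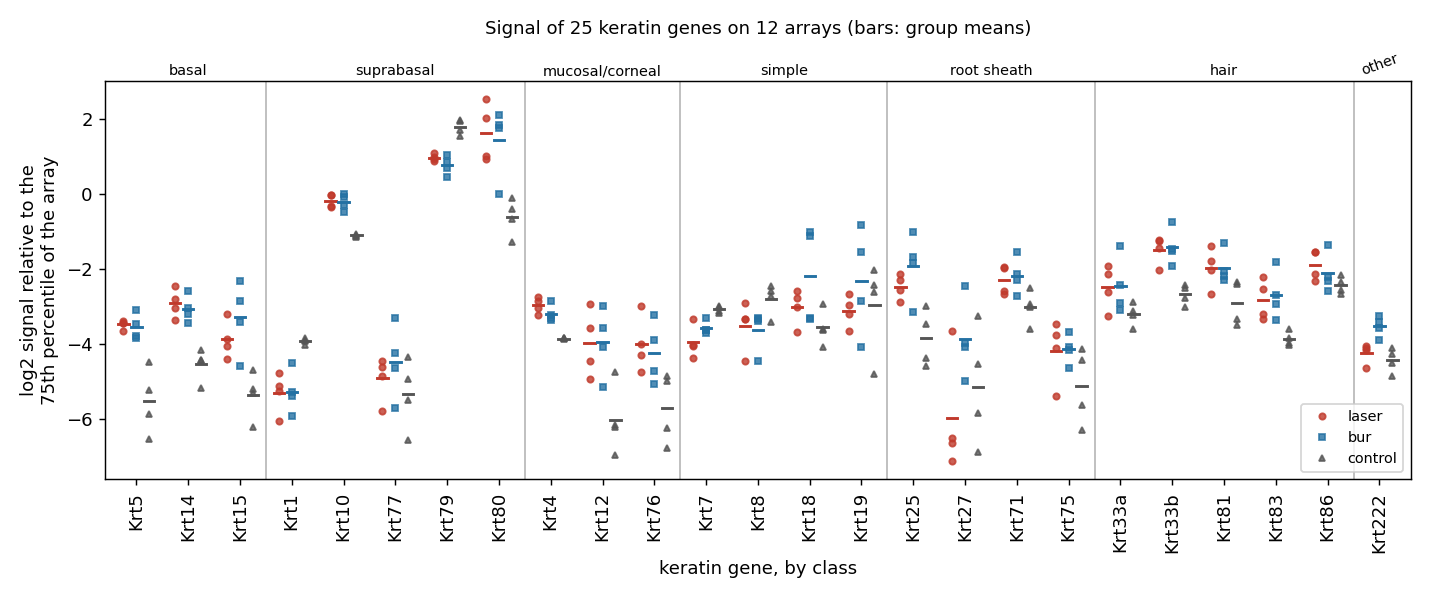
Log2 signal relative to the array's 75th percentile (vertical axis) of the 25 keratins tested, by class; each point is 1 array and each bar a group mean, in the order laser, bur, control. Krt80 and Krt10 sit above their control points on all 4 laser arrays, Krt79 below them.

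The 3 basal keratins passed as higher in both comparisons. Krt5 and Krt15 entered the test through treated arrays alone, and with both at their bound the class median was log2 1.30 with the laser and 1.45 with the bur. Krt14, the type I partner of Krt5 in the basal layer, read -2.46, -2.79, -3.36 and -3.04 on the laser arrays and -2.60, -3.04, -3.19 and -3.45 on the bur arrays, against -4.15, -4.42, -4.43 and -5.19 in control. Every treated array lay above every control array. Krt14 was 3.10-fold higher with the laser (log2 1.63, SE 0.27, adjusted p = 0.000837 by limma) and 2.78-fold higher with the bur (log2 1.48, adjusted p = 0.00144).

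Krt5 read -3.38, -3.43, -3.44 and -3.66 on the laser arrays and -3.10, -3.48, -3.85 and -3.80 on the bur arrays, against -6.52, -4.49, -5.22 and -5.87 in control. Since no control array was well above background, its difference is a bound: at least 2.46-fold higher with the laser (adjusted p = 0.00121, limma) and at least 2.33-fold with the bur (adjusted p = 0.00151, limma). For this bound each control array counted at the lowest signal called well above background on it, or at the probe's signal if higher. A probe can lie above that signal without being called, as Krt5 did on control replicate 2, so all bounds here are approximate. The p-values printed with bounds belong to the fitted difference, not to the bound. Such members entered the test through treated arrays alone, so their passing is not separate support for a rise. The other Krt5 probe printed above passed in both as well, and it too was above background on 0 control arrays. Krt15, a basal keratin that also marks the hair bulge, read -3.20, -3.88, -4.40 and -4.05 with the laser and -2.86, -2.32, -4.58 and -3.40 with the bur, against -5.32, -5.20, -4.70 and -6.22 in control. Its bounds were 1.82-fold with the laser (adjusted p = 0.0236, limma) and 2.73-fold with the bur (adjusted p = 0.00476, limma).

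The suprabasal class split. Of its 5 tested members 2 were higher and 2 lower in both comparisons, and Krt77 did not pass. The class was drawn broadly: the known sites of Krt79 and Krt80, given with their values, are not the suprabasal layers alone. Krt80, a type II keratin found in many epithelia, read 2.01, 2.53, 0.999 and 0.93 on the laser arrays and 2.11, 1.77, 1.85 and -0.003 on the bur arrays, against -0.11, -0.40, -0.68 and -1.28 in control. The lowest treated value, bur replicate 4, still lay just above the highest control value. Krt80 was 4.72-fold higher with the laser (log2 2.24, SE 0.50, adjusted p = 0.00424, limma) and 4.13-fold higher with the bur (log2 2.05, SE 0.50, adjusted p = 0.00662, limma). With only the treated arrays of slide 2, the log2 differences were 1.59 and 1.54 and neither passed (adjusted p = 0.0528 and 0.0556, limma).

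Krt10, the type I chain of the layers above the basal one, read -0.04, -0.34, -0.03 and -0.33 with the laser and -0.30, -0.07, -0.50 and -0.02 with the bur, against -1.13, -1.14, -1.08 and -1.08 in control. The control arrays lay within 0.03 (SD) of each other and every treated array above them. Krt10 was 1.89-fold higher with the laser (log2 0.92, SE 0.13, adjusted p = 0.00045, limma) and 1.85-fold higher with the bur (log2 0.89, SE 0.13, adjusted p = 0.000577, limma).

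Its usual partner moved the other way. Krt1 read -4.78, -5.26, -5.13 and -6.06 with the laser and -5.91, -4.51, -5.40 and -5.27 with the bur, against -3.89, -4.03, -3.91 and -3.85 in control. It was well above background on all 4 control arrays and on 1 array of each treated group. Its log2 fold change was -1.39 with the laser (SE 0.30, adjusted p = 0.00389, limma) and -1.35 with the bur (adjusted p = 0.00451, limma). Krt79, in mouse a keratin of the hair canal and sebaceous duct, read 0.88, 0.99, 0.92 and 1.08 with the laser and 1.03, 0.68, 0.86 and 0.46 with the bur, against 1.55, 1.96, 1.93 and 1.70 in control. All treated arrays lay below all control arrays, with log2 fold changes of -0.82 (SE 0.15, adjusted p = 0.00134, limma) and -1.03 (adjusted p = 0.000446, limma).

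The 3 tested mucosal and corneal keratins passed as higher in both comparisons, of which Krt12 and Krt76 entered the test through treated arrays alone. Krt4, of the lining of mouth and oesophagus, read -3.24, -2.86, -3.04 and -2.74 with the laser and -2.85, -3.31, -3.23 and -3.37 with the bur, against -3.85, -3.85, -3.85 and -3.87 in control. The log2 differences were 0.89 (SE 0.14, adjusted p = 0.000811, limma) and 0.66 (adjusted p = 0.00364, limma). Krt12, the keratin of the cornea, and Krt76, of the hard palate, were the members above background on 0 control arrays. Krt12 was at least 1.78-fold higher with the laser and at least 1.82-fold with the bur (adjusted p = 0.0148 and 0.0136, limma), with a control array at -4.75 inside the range of the treated ones, -5.16 to -2.93. Krt76 was at least 1.69-fold and 1.44-fold higher (adjusted p = 0.0229 and 0.0406, limma). The bur call of Krt76 was lost in 8 and changed sign in 1 of 14 other settings, and it was lost in 5 of 12 fits with 1 array left out.

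Among the 18 epidermal keratins 11 were tested, of which 8 were higher, 2 lower and 1 not passing in each comparison, against 32.2% and 32.7% of all genes higher. Of the 11, 5 had 0 control arrays above background and passed the filter through treated arrays alone. The fitted median was log2 1.48 in both, 0.86 with the laser and 0.87 with the bur with members at their bound where one could be set, and 0.11 and 0.05 with the other background correction described below, where 2 were higher and 2 lower in each. The 4 tested simple keratins had medians of -0.44 with the laser and 0.07 with the bur, and the 5 tested hair keratins 0.93 and 0.94. These class medians rest on few genes and were not tested against each other.

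**Figure D3:**
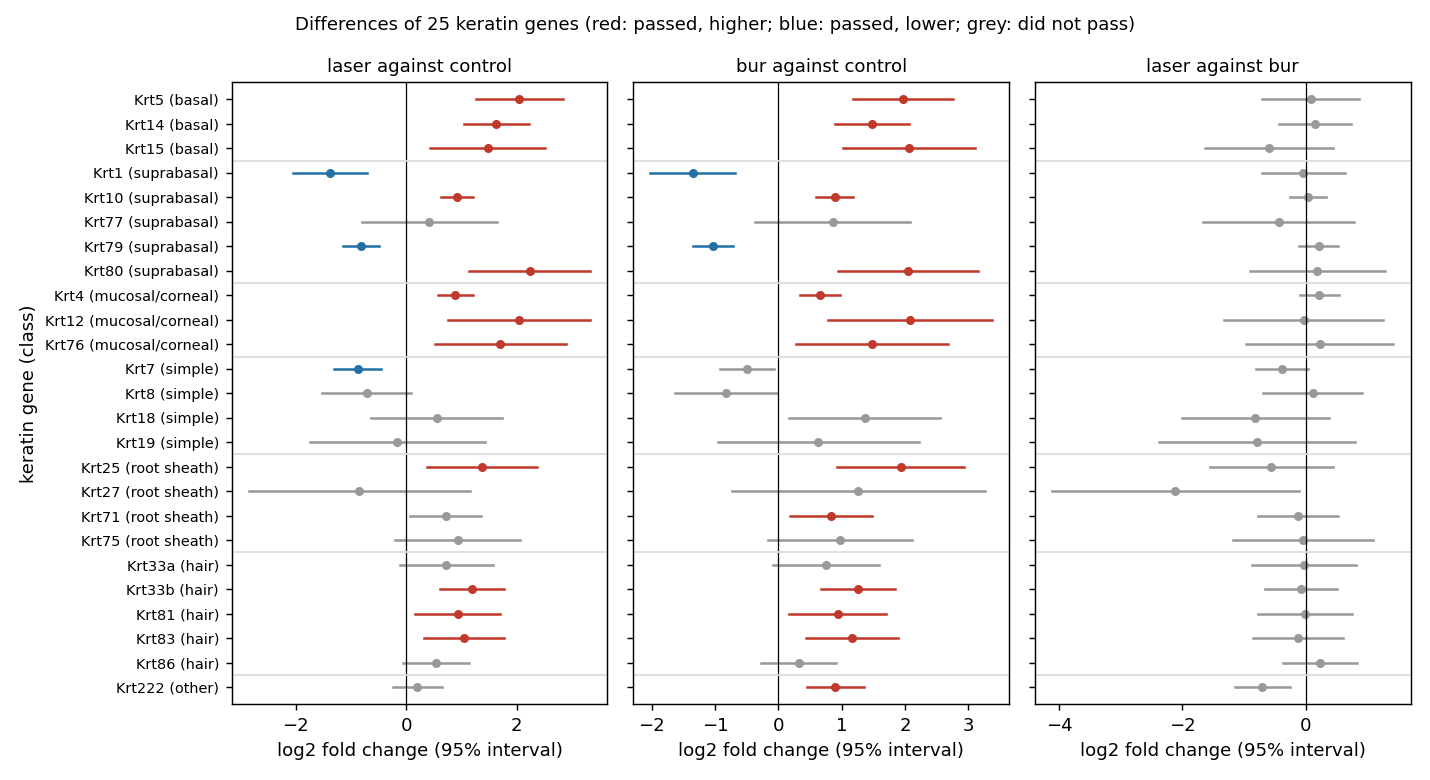
Log2 fold change with its 95% interval (horizontal axis) of the 25 keratins tested, in classes from top to bottom, for laser against control, bur against control and laser against bur; red passed and is higher, blue passed and is lower, grey did not pass. The third panel is grey throughout.

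No simple keratin passed as higher in either comparison with the settings above. Krt7, of ducts and other lining cells, was lower with the laser: it read -3.35, -4.05, -4.37 and -4.02 with the laser and -3.30, -3.63, -3.62 and -3.70 with the bur, against -3.11, -3.01, -3.00 and -3.18 in control. The log2 difference was -0.87 with the laser (SE 0.19, adjusted p = 0.004, limma) and -0.49 with the bur, which did not pass (adjusted p = 0.0523, limma) but was lower past the threshold in 10 of 15 other settings. A further Krt7 probe read the other way, by log2 0.48 and 0.24, and did not pass (adjusted p = 0.267 and 0.571, limma). Krt8 differed by -0.71 and -0.83 and did not pass (adjusted p = 0.124 and 0.0782, limma).

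Among the 25 tested keratins Krt18 and Krt19 varied most within the bur group (SD 1.30 and 1.44). Krt18, the type I partner of Krt8, read -3.01, -2.59, -3.67 and -2.77 with the laser and -3.34, -1.03, -3.30 and -1.12 with the bur, against -3.62, -2.95, -4.08 and -3.59 in control. Bur replicates 2 and 4 stood above all other arrays. Krt19 read -0.84 and -1.55 on those same arrays, against -2.85 and -4.09 on bur replicates 1 and 3. Neither gene passed in any comparison (Krt18 with the bur: log2 1.36, SE 0.54, adjusted p = 0.0547, limma). Krt18 was higher past the threshold with the bur in 5 of 16 other settings. Another Krt18 probe passed with the bur (adjusted p = 0.0242, limma), but it was above background on 2 laser, 3 bur and 0 control arrays. It entered the test through treated arrays alone, so its fitted difference is not given and its passing is not separate support. The array design places this probe on chromosome 2, while Krt18 lies on chromosome 7, so it may not read Krt18. Pkp2, a desmosomal plakophilin looked up after these values were seen, read 0.69 and -0.13 on bur replicates 2 and 4, against -3.91 and -3.41 on the other bur arrays. It read -0.40 on laser replicate 4, where Krt18 was -2.77. The synaptic genes Snap25 and Syp of the neural list, also looked up after these values were seen, were high on the same treated arrays and in control. Snap25 read 2.64 and 1.35 on bur replicates 2 and 4 and 1.41 on laser replicate 4, against -3.64 to -1.61 on the other treated arrays. Syp read 1.12 and 0.03 and -0.29 there, against -6.47 to -3.77 on the other treated arrays. In control Snap25 read 0.13 to 1.835 and Syp -2.05 to 0.17, while Krt18 was -4.08 to -2.95. Gad1 and Elavl3, of the same list, read 0.45 and -3.07 on bur replicate 2. They read -4.05 and -5.66 on bur replicate 4 and -5.37 and -6.67 on laser replicate 4, so the list did not move as a whole. The part of other tissue in these signals was not tested.

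**Figure D4:**
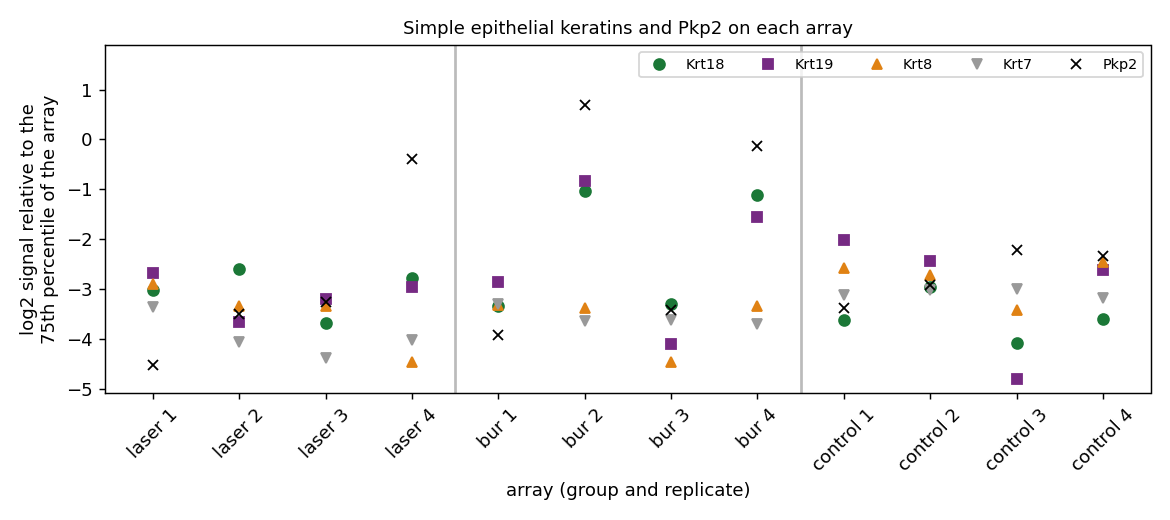
Log2 signal relative to the array's 75th percentile (vertical axis) of the simple keratins Krt7, Krt8, Krt18 and Krt19 and of Pkp2 on each of the 12 arrays, grouped as laser, bur and control. Krt18, Krt19 and Pkp2 are high on bur replicates 2 and 4, at -1.55 to 0.69.

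Of the 4 tested root sheath keratins 1 rose with the laser and 2 with the bur. Krt25 read -2.15, -2.30, -2.89 and -2.57 with the laser and -1.84, -1.01, -3.15 and -1.68 with the bur, against -3.46, -4.58, -3.00 and -4.37 in control. Its log2 difference was 1.37 with the laser (SE 0.45, adjusted p = 0.0273, limma) and 1.93 with the bur (adjusted p = 0.0055, limma), and bur replicate 3 overlapped control. Krt71, its type II counterpart, differed by 0.72 with the laser (adjusted p = 0.0619, limma) and rose by 0.84 with the bur (adjusted p = 0.0341, limma). Krt27 read -7.12, -3.66, -6.64 and -6.50 with the laser and -4.08, -2.44, -3.96 and -4.99 with the bur, against -4.54, -5.85, -3.26 and -6.88 in control, and it did not pass.

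Krt33b, Krt81 and Krt83 rose among the 5 tested hair keratins in both comparisons, and Krt33a and Krt86 did not pass. Krt33b, a type I keratin of the hair cortex, read -1.22, -1.25, -1.44 and -2.04 with the laser and -0.74, -1.51, -1.94 and -1.48 with the bur, against -2.50, -2.43, -3.00 and -2.78 in control. It was 2.28-fold higher with the laser (log2 1.19, SE 0.26, adjusted p = 0.00411, limma) and 2.39-fold higher with the bur (log2 1.26, adjusted p = 0.00304, limma). Krt83 was higher by log2 1.04 and 1.16 (adjusted p = 0.0227 and 0.0138, limma), and the accession of its probe belongs to Krt87 in the RefSeq table. Krt81 was higher by 0.93 and 0.94, close to the threshold (adjusted p = 0.0439 and 0.0421, limma). Krt222, a keratin-like gene outside the classes, was higher with the bur (log2 0.90, SE 0.20, adjusted p = 0.00432, limma) and differed by 0.20 with the laser (adjusted p = 0.429, limma).

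Between the laser and the bur 0 of 25 keratins passed, where 0.00436% of all genes did, which is 1 gene, Hspa1a. At an unadjusted p under 0.05 there were 2 keratins and 1493 genes. The smallest p was that of Krt222, which read -4.16, -4.04, -4.10 and -4.64 with the laser and -3.26, -3.41, -3.89 and -3.56 with the bur. These did not overlap, as for 3.56% of all genes, and the log2 difference was -0.70 (adjusted p = 0.545, limma). The 95% interval of the log2 difference ran from -0.26 to 0.33 for Krt10 and from -0.91 to 1.29 for Krt80, both short of the difference of that gene from control. It was wide for dim keratins, from -4.11 to -0.11 for Krt27.

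How large these differences are depends on the background correction. With normexp and an offset of 50 in place of the processed signal, Krt10, Krt33b and Krt80 were the keratins higher in either comparison. Krt1, Krt7 and Krt79 were then lower in both, and Krt8 in the bur comparison. Of the 15 keratins that passed with the laser 6 passed again in the same direction, and 5 of 16 with the bur. Krt80 was higher by log2 1.77 and 1.64 under this setting. The basal keratins kept their sign and shrank: Krt5 differed by 0.16 and 0.08 and Krt14 by 0.27 and 0.14. The offset shrinks differences of dim probes by construction.

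**Figure D5:**
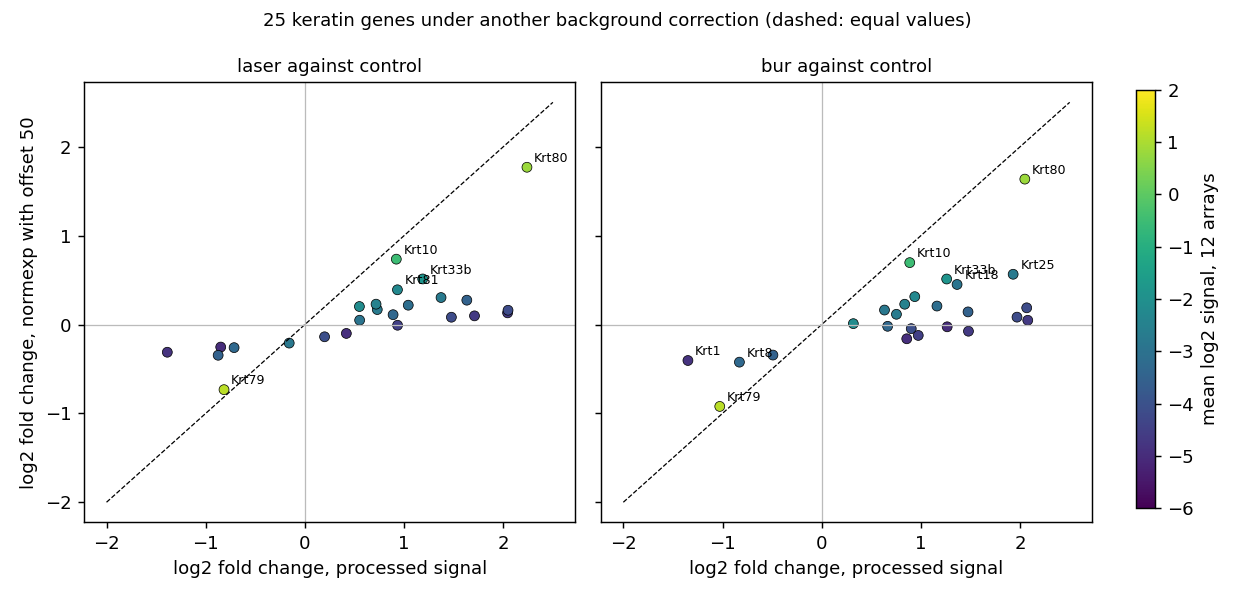
Log2 fold change of the 25 keratins with the processed signal (horizontal axis) and with normexp at an offset of 50 (vertical axis), for laser against control and bur against control; colour is the mean log2 signal and the dashed line marks equal values. Krt80 is highest on the vertical axis in both panels, at 1.77 and 1.64, and most dim keratins lie near 0 on it.

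Slide also moved with the keratins. Among the treated arrays 24 of 25 keratins (96%) were higher on slide 1 than on slide 2, by a median of log2 0.54, as were 46.2% of all genes, 67.3% of the dimmest bin and 58.9% of the next. With only the treated arrays of slide 1, 15 keratins were higher and 3 lower with the laser and 14 and 2 with the bur. With only those of slide 2, 6 were higher and 3 lower in each comparison. Krt4, Krt5, Krt10, Krt14, Krt33b and Krt83 were the higher ones and Krt1, Krt7 and Krt79 the lower. The part of slide in the keratin differences from control cannot be told apart from treatment, since no control array shares a slide with a treated one.

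Other genes of these epithelia were read from fixed lists. Of 22 keratinocyte genes other than keratins 15 were tested, of which 6 were higher and 2 lower with the laser (40% and 13.3%) and 7 and 1 with the bur (46.7% and 6.7%), beside 32.2% and 17.6% of all genes with the laser and 32.7% and 18.3% with the bur. Tgm3, which cross-links the cornified envelope and hair, rose by log2 1.35 and 1.67, and Sbsn, a suprabasal secreted protein, by 0.47 and 0.74. Sfn, a 14-3-3 protein of stratified epithelia, was lower (-0.98 and -0.78). The desmosomal cadherins Dsg1 and Dsc3 were well above background on 0 of 12 arrays. The summed signal of the list, in units of the array's 75th percentile, was 15.8 to 23.1 on laser and 18.5 to 28.9 on bur arrays, against 15.9 to 21.0 in control. Tp63, the transcription factor p63, made up 75.4% to 83.6% of it. Without Tp63 the sum was 3.56 to 4.17 on laser and 4.35 to 5.25 on bur arrays, against 3.38 to 4.50 in control.

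Of 15 desmosome partners 9 were tested, with 4 higher and 1 lower with the laser (44.4% and 11.1%) and 3 higher and 0 lower with the bur (33.3%), near the shares of all genes higher. Dst and Plec, linkers of intermediate filaments that are not limited to epithelia, rose by log2 1.31 and 1.04 with the laser and by 1.45 and 1.38 with the bur, and Pkp1 by 1.06 and 1.33. Dsp, the plaque protein that anchors keratin filaments, was well above background on 0 of 12 arrays, as were Pkp3, Ppl, Dsc2, Dsc3 and Dsg4. The summed signal was 23.8 to 34.1 with the laser and 31.04 to 34.5 with the bur, against 11.2 to 17.5 in control, of which Plec made up 54.5% to 74.2%. Without Plec it was 7.42 to 11.4 and 8.02 to 11.7, against 5.11 to 6.29 in control. That remainder still holds Dst, which read log2 1.92 to 2.57 with the laser and 2.16 to 2.69 with the bur, against 0.72 to 1.11 in control. The sum without Plec thus does not speak for the list as a whole.

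Of 31 hair follicle genes other than keratins 23 were tested, of which 9 were higher and 4 lower with the laser (39.1% and 17.4%) and 10 and 2 with the bur (43.5% and 8.7%), beside the shares of all genes given above. Krtap13-2, a keratin-associated protein of the hair shaft, and Foxn1, the transcription factor of hair and thymus, passed as higher in both, with 0 control arrays above background, so their fitted differences are not given. Lhx2, a factor of follicle stem cells and brain, passed as lower in both and was above background on 1 laser, 0 bur and 3 control arrays. The summed signal of the list was 18.8 to 29.5 with the laser and 16.99 to 26.5 with the bur, against 37.0 to 43.9 in control. The single probe of Krtap16-5 made up 40.7% to 78.2% of it, and without that probe the sum was 9.68 to 11.1 and 7.84 to 13.7, against 8.12 to 9.75 in control.

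Of 14 simple epithelium genes 12 were tested, with 0 higher and 6 lower with the laser and 2 higher and 6 lower with the bur, so 50% were lower in each. Over all genes 17.6% were lower and 32.2% higher with the laser, and 18.3% and 32.7% with the bur. Cdh1, the epithelial cadherin, was lower by -2.21 and -1.95, and Cldn7, a tight junction claudin, by -2.33 and -1.98. Cldn7 was well above background on 1 laser, 3 bur and 4 control arrays, so its treated values lie near background. Cdh1 is also expressed by cells of the marrow. Cldn3, another claudin, lay the other way, at 1.58 to 2.83 with the laser and 1.43 to 3.39 with the bur, against 0.98 to 1.35 in control. It did not pass with the laser. Epcam, a defining surface protein of simple epithelia, was well above background on 0 of 12 arrays. The summed signal was 12.3 to 14.2 with the laser and 11.01 to 16.3 with the bur, against 19.0 to 24.2 in control. No gene of these 4 lists passed between laser and bur. The part of epithelial cells in the keratin signals was not tested.

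The stretch around each gene's start, mostly upstream of it and reaching into the first transcribed bases, was read for 35 members with a promoter entry in the RefSeq table (GRCr8), 300 bases each. Searched on both strands, TATAAA was found in 21 of 35 keratin promoters (60.0%), against 14.2% of 33469 promoters of the table. By class it was in 7 of 8 root sheath, 8 of 11 hair, 2 of 4 simple and 3 of 11 epidermal promoters. TGANTCA, the letters that AP-1 factors bind, was in 2 of 35 (5.7%) and in 7.3% of all. In Krt4 it lies upstream of the start and in Krt8 after it, in transcribed bases. The start is that of the promoter table, which for 5 of the 35, Krt4 and Krt25 among them, lies inside the gene's outer bounds in the same assembly. The promoters of Krt10, Krt25, Krt4 and Krt5 follow, with matches to either motif in capitals. That of Krt8, which holds both motifs, is not printed.
Krt10 promoter (chr10:84839111-84839410, minus strand): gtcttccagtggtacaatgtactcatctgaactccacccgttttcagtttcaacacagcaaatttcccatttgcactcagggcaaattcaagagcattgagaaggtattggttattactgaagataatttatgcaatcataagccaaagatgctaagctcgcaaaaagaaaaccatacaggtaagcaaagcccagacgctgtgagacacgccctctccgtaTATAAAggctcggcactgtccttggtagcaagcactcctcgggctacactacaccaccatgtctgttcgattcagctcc
Krt25 promoter (chr10:84771148-84771447, minus strand): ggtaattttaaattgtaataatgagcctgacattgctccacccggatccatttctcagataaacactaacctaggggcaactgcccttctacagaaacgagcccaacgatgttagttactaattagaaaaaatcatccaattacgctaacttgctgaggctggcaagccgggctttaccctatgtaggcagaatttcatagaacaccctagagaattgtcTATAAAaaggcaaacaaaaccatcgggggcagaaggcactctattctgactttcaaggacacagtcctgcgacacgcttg
Krt4 promoter (chr7:134930664-134930963, minus strand): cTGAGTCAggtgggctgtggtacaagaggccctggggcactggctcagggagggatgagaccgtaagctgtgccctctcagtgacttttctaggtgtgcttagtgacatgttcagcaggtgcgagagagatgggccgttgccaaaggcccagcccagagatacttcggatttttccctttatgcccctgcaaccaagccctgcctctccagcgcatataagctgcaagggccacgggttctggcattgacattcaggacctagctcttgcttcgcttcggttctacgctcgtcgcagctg
Krt5 promoter (chr7:134730520-134730819, minus strand): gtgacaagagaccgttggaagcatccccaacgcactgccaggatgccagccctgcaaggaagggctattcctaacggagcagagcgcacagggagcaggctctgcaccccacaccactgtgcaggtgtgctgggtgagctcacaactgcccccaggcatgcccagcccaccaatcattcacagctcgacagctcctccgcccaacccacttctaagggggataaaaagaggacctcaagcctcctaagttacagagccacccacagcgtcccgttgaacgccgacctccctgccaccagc
Krt10 and Krt25 hold TATAAA, Krt4 holds TGANTCA and Krt5 neither, while Krt5, Krt10 and Krt4 were all higher after both treatments. A match describes the letters of the window and is not shown to be a site.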

How the data were processed

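Total RNA, 200 ng per sample, was labelled with Cy3 per the labels. The scanner files give spot intensity, deposited as Agilent Feature Extraction output (version 11.0.1.1 per the submitters' processing notes), whose processed signal has background removed per the file headers. A deposited log2 table, quantile normalized by the authors per its file name, served as an alternative. The deposited comparison tables were not used here.

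Processed signals were log2 transformed without control spots and spots with a feature outlier mark, spots of a probe were averaged, and each array's 75th percentile was subtracted. Subtraction and log2 make dim probes noisy. One probe per gene name gave 34912 genes, of which 22924 passed the filter. All 12 arrays entered one fit with a mean per group (limma 3.58.1, R 4.3.3), and the code was tested on simulated data. Precision is set by how few arrays each group has. Of 48 keratin probes whose accession is in the RefSeq table, 47 carry the same symbol there. A further 3 probes are keratins by accession only and were left out by the rule on names. Krt72, below the filter, lacks a value on 3 arrays.

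Samples were grouped by title. Per-array values are given for keratins passing in at least 1 comparison, and up to 3 genes were named from each marker list by adjusted p; other marker genes were named after their values were seen. The members and lists were chosen with earlier results of these data known. Alternatives covered scaling, background correction, the deposited table, filters, several probes, 2-group fits, replicate and slide blocks, an intensity trend, array weights and leaving out each array.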

Additional observations from a re-analysis of the deposited data

Results flagged for a closer look

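In 80 gene and group sets of 4 arrays with a keratin signal, 6 had 1 array far from the other 3 by Dixon's ratio. For unselected values chance gives about 1 in 20, but a set needed 1 array or more well above background to enter. Krt31, Krt36, Krt85 and Krt9 entered through the array that was then set apart, so that rate does not hold for these sets. On the log2 scale relative to the 75th percentile, Krt80 read -0.003 on bur replicate 4, against 1.77 to 2.11 on the other bur arrays. Krt8 read -4.46 on bur replicate 3, against -3.38 to -3.32 on the others. Krt31 read -4.43 on bur replicate 4, against -5.43 to -5.32. The other 3 were single bright spots of keratins otherwise not above background. Krt36 read -2.08 on bur replicate 2, Krt85 read -2.33 on bur replicate 1 and Krt9 read -1.59 on laser replicate 2, against -6.54, -6.95 and -6.12 on the next array of the same group.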

How the results depend on the processing

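The number of keratins higher with the laser was 12, against 3 with normexp, 6 with a filter of all 12 arrays above background and 6 with the treated arrays of slide 2 alone. The number higher with the bur was 14, against 3, 8 and 6 under the same settings. The number lower with the laser was 3, against 1 with the filter of all 12 arrays. The number lower with the bur was 2, against 4 with quantile normalization, normexp, the authors' deposited table and median centring, and 1 with the filter of all 12 arrays. The stricter filter tests fewer keratins by construction, and for the rest the cause was not tested beyond the offset. The epidermal median with the laser was 1.48, against 1.18 with quantile normalization and 0.11 with normexp, and with the bur 1.48, against 0.048 with normexp. With normexp, a setting chosen for the classes after seeing the data, the hair medians were 0.22 and 0.21, the root sheath medians 0.11 and 0.10 and, between laser and bur, -0.11, and the simple epithelial median between laser and bur was -0.19. Leaving out 1 array gave 7 to 14 higher and 3 lower with the laser, 11 to 14 higher and 2 to 3 lower with the bur, and 0 between laser and bur. The 7 came without laser replicate 1 and 8 without control replicate 4. With normexp the bur differences of Krt4 (-0.0201), Krt222 (-0.0467) and Krt76 (-0.0755) changed sign and did not pass. Over the named keratins and all settings, 1218 of 1395 values kept direction and side of the threshold, 102 lost a call, 3 of them with the sign changed, and 20 gained one. A further 55 that had not passed changed sign, 52 of them between laser and bur.

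The median of all genes was 0.21 and 0.23 in the main setting and 0.10 and 0.05 with median centring, which was chosen after seeing the data, and 64.2% of the bur calls were higher in the main setting, against 51.6% with median centring. With the replicate number as a block, 14 keratins were higher and 3 lower with the laser, 15 and 3 with the bur, and 0 between laser and bur. Same-numbered arrays correlated in their deviations at 0.045 to 0.578, so the numbers were not taken to pair samples. With slide as a block, 10 were higher and 3 lower with the laser and 11 and 2 with the bur. Probes near background limit the precision: the lowest signal called well above background was -5.74 to -4.44 on the relative log2 scale.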

Other observations

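Of 16 other intermediate filament genes tested, 1 was higher and 3 lower with the laser and 2 higher and 4 lower with the bur. Lmna, the nuclear lamin A/C gene, read 4.88, 4.82, 4.84 and 5.24 with the laser and 5.01, 4.995, 5.04 and 5.05 with the bur, against 4.25, 3.81, 4.02 and 4.02 in control, a rise of log2 0.92 and 0.9996. Vim, the vimentin of mesenchymal cells, read 4.11 to 4.24 with the laser and 3.83 to 4.30 with the bur, against 3.96 to 4.34 in control, and did not pass. Gfap, of astrocytes, was lower by log2 -2.19 and -1.97, and Nefm, of neurons, by -2.57 and -2.23. Gfap was well above background on 1 laser, 2 bur and 4 control arrays and Nefm on 1, 2 and 3, so the treated values lie near background. Of 8 neural and glial genes 5 were lower in each comparison, with a summed signal of 8.40 to 67.2 with the laser and 11.7 to 26.9 with the bur, against 7.22 to 61.3 in control, of which Mbp made up 50.1% to 98.1%. Of 8 skeletal muscle genes 0 passed, and their sum was 2.31 to 16.3 on treated arrays, against 299.1 and 117.6 on control replicates 2 and 4 and 2.74 and 5.70 on the other control arrays. Of 6 tested genes of mesothelium and meninges 1 was higher with the laser, and 2 were higher and 1 lower with the bur. Among 23 keratin-associated protein genes 16 were tested, of which 6 were higher and 2 lower with the laser and 7 and 1 with the bur. All these counts stand beside the shares of all genes: 32.2% higher and 17.6% lower with the laser, and 32.7% and 18.3% with the bur.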
